A study of Mus musculus with 2 samples.

Results

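Cd74 and 5 MHC class II genes were examined in single-cell transcriptomes of regulatory T (Treg) cells. These are suppressive CD4 T cells defined by the transcription factor Foxp3. The set of 6 genes was Cd74, H2-Aa, H2-Ab1, H2-Eb1, H2-DMa and H2-Oa, out of 16098 genes in the count table. These genes were picked because several of them had already been seen to differ between the libraries, so their ratios between rescued and control cells are given as a description. Cells were sorted from pooled spleen and lymph nodes of male C57BL/6 mice. The control library came from 5 pooled Foxp3DTR-GFP/y Cd4creERT2 mice, whose Foxp3 locus is active from birth and also encodes a diphtheria toxin receptor and GFP fusion protein. The rescued library came from 4 pooled Foxp3LSL/y Cd4creERT2 mice, in which a floxed STOP cassette silenced a GFP reporter allele of Foxp3 until Cre removed it. Both groups carried a tamoxifen-dependent Cre driven by Cd4 and a Cre-dependent tdTomato reporter at Rosa26, received 4-hydroxytamoxifen on postnatal day 14, and are labelled 7 months. Each group was 1 library. No difference had a replicate check, no test was possible, and genotype, mice and capture cannot be told apart.

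MHC class II molecules present peptides from the endosomal pathway to CD4 T cells. Each is an α and β chain pair that is assembled in the endoplasmic reticulum on the invariant chain, the product of Cd74. Proteases then trim the invariant chain to a short peptide in the groove, the DM heterodimer exchanges that peptide for antigen, and the DO heterodimer restrains DM. The genes are switched on together by the transactivator Ciita, which is recruited by factors bound to the X and Y boxes of their promoters. B cells, dendritic cells and macrophages express them at high levels. Mouse T cells are regarded as largely lacking surface class II of their own, and C57BL/6 mice lack the I-E α chain that would pair with the H2-Eb1 product.

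The 5 H2 genes lie in the MHC on chromosome 17 of GRCm38. H2-Oa (ENSMUSG00000024334) is at chr17:34092340-34095234, H2-DMa (ENSMUSG00000037649) at chr17:34119541-34139101, H2-Ab1 (ENSMUSG00000073421) at chr17:34257689-34269419, H2-Aa (ENSMUSG00000036594) at chr17:34282744-34287823 on the minus strand, and H2-Eb1 (ENSMUSG00000060586) at chr17:34305867-34316674. RefSeq promoter windows (GRCm38.p6, 250 bases before to 50 bases after a start site) matched 4 of the 6 genes, namely H2-Aa, H2-DMa, H2-Eb1 and H2-Oa. Stretches running from 150 to 11 bases before the start site are printed for the 3 of these genes with a motif match there. They show which of these letters a classical α chain, a classical β chain and a DO chain share and where they lie. Capitals mark matches to the Y box core ATTGG on either strand or to the degenerate X box core.
H2-Aa, chr17:34287834-34287973, minus strand: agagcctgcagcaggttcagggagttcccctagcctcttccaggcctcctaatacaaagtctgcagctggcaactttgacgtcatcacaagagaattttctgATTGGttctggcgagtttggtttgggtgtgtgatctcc
H2-Eb1, chr17:34305717-34305856, plus strand: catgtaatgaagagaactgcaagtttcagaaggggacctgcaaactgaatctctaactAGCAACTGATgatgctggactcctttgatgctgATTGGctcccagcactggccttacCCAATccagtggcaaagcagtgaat
H2-Oa, chr17:34092229-34092368, plus strand: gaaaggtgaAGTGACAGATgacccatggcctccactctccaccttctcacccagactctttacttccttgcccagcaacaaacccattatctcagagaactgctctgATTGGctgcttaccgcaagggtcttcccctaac

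A Y box core on the gene's own strand began 48 bases before the start site in H2-Aa, 59 in H2-Eb1 and 43 in H2-Oa, and H2-Eb1 had a second match on the opposite strand 35 bases before it. The X box core matched H2-Eb1 at 92 and H2-Oa at 141 bases before the start. H2-DMa had 2 windows, of which 1 held no match and the other a Y box core 198 bases before its start. Of all 32851 promoter windows searched on both strands, 37.4% held the Y box core, 2.68% the X box core and 1.02% both, so the Y core alone is common. The core letters do not overlap each other in these windows, and a match is a description of the letters only.

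There were 3634 control cells and 3390 rescued cells. Their median depths were 3739.5 and 3846.5 unique molecular identifiers (UMIs, each marking 1 captured RNA molecule). Their totals were 15446201 and 15537656 UMIs, and 3 cell barcodes occurred in both. Cells carried T cell transcripts, with Cd3e in 90.1% of control and 93.7% of rescued cells. Foxp3, the engineered gene, had 80.9 CPM in control and 468 CPM in rescued cells, from different alleles, where CPM is the count scaled to 1000000 UMIs per library or cell group. Markers of other cell types were low or moved with the library. Cd79a, the B cell receptor signalling chain, had 35 control and 21 rescued UMIs, Ms4a1 had 0 and 14, and Lyz2, a myeloid lysozyme, had 6 and 16. Of 16 measured B cell markers 9 had a higher CPM in rescued cells, and their sum was 910 CPM in control and 1970 CPM in rescued cells. Most of that sum was Ighm, the immunoglobulin mu heavy chain, at 823 and 1835 CPM, and without Ighm the sums were 86.8 and 135 CPM. Igkc, the kappa light chain, had 15.4 and 38.2 CPM and Ighd, the delta heavy chain, 13.1 and 31.5 CPM. Like Ighm, both were higher in rescued cells by a fold close to that of Cd74. Cd79b, the partner of Cd79a, had 36.1 and 48.1 CPM. Ighm was detected in 78.3% of cells in the control library and 96.3% in the rescued library, so its UMIs were not limited to a few cells. Ms4a1 and Iglc2 were at 0 in control cells, and no B cell marker was at 0 in rescued cells. Of 11 measured myeloid markers 9 were higher in rescued cells, with sums of 170 and 204 CPM. Most of that sum was Cst3, and without Cst3 the sums were 3.56 and 5.21 CPM. Cst3 was detected in 47.8% of control and 55.6% of rescued cells, so its UMIs were not limited to a few cells. Of 3 measured dendritic cell markers 2 were higher in rescued cells, with sums of 34.9 and 49.9 CPM. Most of the dendritic sum was Irf8, at 32.7 CPM in control and 47.8 CPM in rescued cells. Of 5 measured red blood cell genes 5 were higher in rescued cells, with sums of 5 and 32 UMIs (0.32 and 2.06 CPM). Of 5 measured CD8 or NK cell markers 0 were higher in rescued cells, with sums of 64.3 and 43.2 CPM. The part of these transcripts in the results below was not tested beyond the exclusions given there.

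Cd74 (ENSMUSG00000024610, chromosome 18), which encodes the invariant chain, was the most abundant of the 6 genes. The control library had 2375 Cd74 UMIs (95% Poisson interval 2280 to 2472), which is 154 CPM. Rescued cells had 5394 (5251 to 5540), which is 347 CPM. Cd74 ranked 1083 among all genes by level in control cells and 375 in rescued cells. The log2 ratio of rescued to control CPM was 1.17 (95% conditional exact interval 1.11 to 1.25), a 2.26-fold difference. Intervals here and below cover counting error only and say nothing about differences between mice.

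The classical chains were rare. H2-Aa, the I-A α chain, had 23 UMIs in control and 71 in rescued cells (1.49 and 4.57 CPM). H2-Ab1, its β partner, had 32 and 96 UMIs (2.07 and 6.18 CPM). H2-Eb1, the I-E β chain, had 61 and 192 UMIs (3.95 and 12.4 CPM). All 3 genes had about 3 times the level in rescued cells, with log2 ratios of 1.62 (0.92 to 2.36) for H2-Aa, 1.58 (0.99 to 2.20) for H2-Ab1 and 1.65 (1.22 to 2.09) for H2-Eb1. Summed, they had 116 and 359 UMIs, and a log2 ratio of 1.62 (1.32 to 1.94). In each case the counting interval of the ratio lay above 0.

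The accessory genes had smaller ratios, apart from the rare DM β chains. H2-DMa, the α chain of the peptide exchange factor, had 1284 UMIs in control and 1790 in rescued cells (83.1 and 115 CPM), a log2 ratio of 0.47 (0.37 to 0.58). H2-Oa, the α chain of its inhibitor, had 539 and 529 UMIs (34.9 and 34.05 CPM), a log2 ratio of -0.04 (-0.21 to 0.14). Because H2-DMa and H2-Oa made up 94.0% of the summed UMIs of the 5 H2 genes in control and 86.6% in rescued cells, that sum had a log2 ratio of 0.46 (0.37 to 0.54) and mostly describes these accessory genes.

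**Figure D1:**
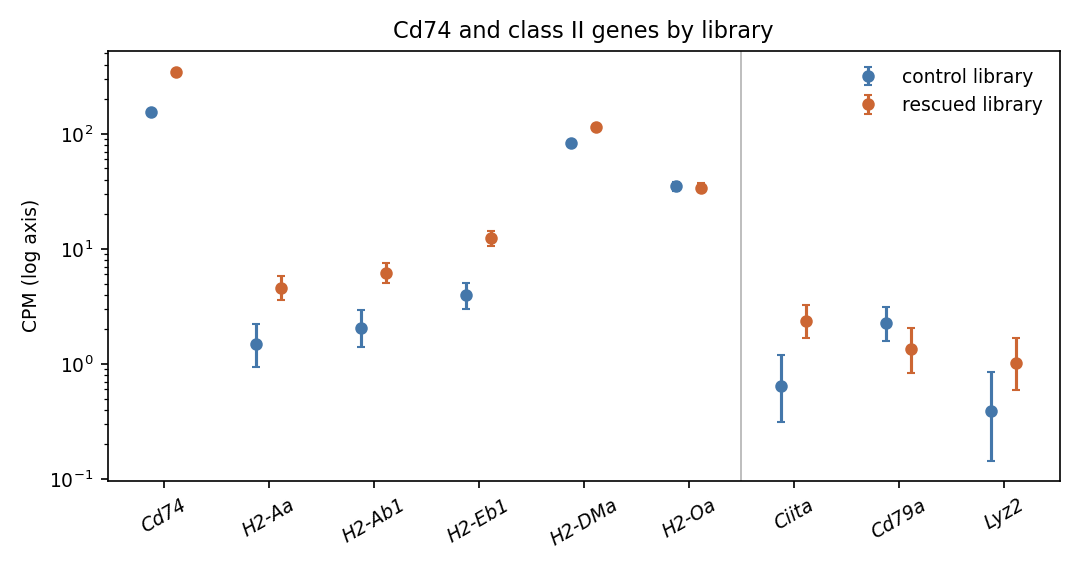
CPM (log axis) of the 6 genes and, right of the line, of Ciita, Cd79a and Lyz2 in the control and rescued libraries. Points are library totals and bars are 95% Poisson intervals for counting error, and Cd74 and the 3 classical chains stand higher in the rescued library, whereas H2-Oa does not.

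In all, 4 of the 6 genes were at least 2-fold higher in rescued cells and 0 were at least 2-fold lower. With a minimum of 100 UMIs over both libraries, which 5 of the 6 genes passed (H2-Aa, with 94 UMIs, did not), 3 of 5 were at least 2-fold higher. H2-Ab1 and H2-Eb1, with 32 and 61 control UMIs, needed their rescued UMIs to pass. Of all 9779 genes with that minimum, 1.72% were at least 2-fold higher in rescued cells, and this count rests on the contrast that the genes were picked from. The median log2 ratio was 1.38 over the 6 genes and 0.02 over all genes tested, of which the middle 90% lay between -0.42 and 0.59. When ratios were taken within clusters of cells, the count fell to 2 of 6, as described below.

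The partner chains differed in their balance. H2-Aa had 0.72 UMIs for each H2-Ab1 UMI in control cells (0.40 to 1.27) and 0.74 in rescued cells (0.54 to 1.02), so the I-A pair was close to even. H2-Oa had 1.05 UMIs for each UMI of H2-Ob, the DO β chain, in the control library (0.93 to 1.19) and 1.16 in the rescued library (1.02 to 1.32). H2-DMa had 32.9 UMIs for each UMI of the DM β chains H2-DMb1 and H2-DMb2 together in control cells (23.95 to 46.5) and 22.7 in rescued cells (18.1 to 28.8). H2-DMb1 had 18 control and 37 rescued UMIs, a log2 ratio of 1.03 (0.18 to 1.93), and H2-DMb2 had 21 and 42, a log2 ratio of 0.99 (0.20 to 1.82). H2-DMb1 and H2-DMb2 are closely related copies, and 12.7% of the 90-base windows in the last 500 bases of H2-DMb1 transcripts also occurred in H2-DMb2, so reads that match both may have gone uncounted. No such window of the 6 genes occurred in another gene's transcripts. Because 3′ UMI counting gives 1 count per molecule whatever its length, these ratios compare molecules, apart from differences in capture. Cd74 exceeded the classical chains together by 20.5-fold in control cells (16.99 to 24.9) and 15.03-fold in rescued cells (13.5 to 16.8).

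To describe whether these UMIs sat in a few cells or were spread, the number of cells with a UMI was compared with an even spread. An even spread places UMIs in proportion to each cell's depth. Cd79a reached 0.98 of that number in control and 0.91 in rescued cells, and Igkc 0.28 and 0.31. Lyz2, with 6 and 16 UMIs, reached 1.00 and 0.75. B cell genes thus lay both near an even spread and far below it. The spread therefore does not tell from which cells a gene's UMIs came, and that was not tested. Cd74 was found in 929 control cells (25.6%, exact binomial interval 24.2 to 27.0%) and 1622 rescued cells (47.8%, 46.2 to 49.5%). At an equal depth of 1000 UMIs per cell the expected shares were 10.1% and 21.6%, in the same order as the CPM. An even spread by depth would have put Cd74 UMIs in 1667 control and 2531 rescued cells, so it reached 0.56 and 0.64 of that number. Of genes with a total in the same range (at least 1000 UMIs and less than 10 times that) 0.50% in control and 0.56% in rescued cells had a lower ratio, and their median was 0.98 in both libraries. Cd74 was thus found in many cells, but less evenly than nearly all genes of that range. It had at least 5 UMIs in 133 control and 334 rescued cells, which held 44.1% and 54.7% of its UMIs, and at most 24 and 66 UMIs in a single cell.

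The classical chains were sparse. H2-Aa was found in 18 control and 51 rescued cells, H2-Ab1 in 23 and 65, and H2-Eb1 in 43 and 115, or 1.18% (0.86 to 1.59%) and 3.39% (2.81 to 4.06%) of cells. These counts were 0.62 to 0.79 of an even spread, against a median of 0.97 for genes with at least 20 and under 200 UMIs. No cell held more than 10 UMIs of any of them. The highest was an H2-Eb1 count of 10 in a rescued cell, and 50% of the H2-Eb1 UMIs lay in 13 control and 29 rescued cells.

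H2-DMa was spread nearly evenly, and H2-Oa less so. H2-DMa was found in 996 control (27.4%) and 1276 rescued cells (37.6%), 0.95 and 0.96 of an even spread, close to Cd3e at 0.98 and 0.99. H2-Oa was found in 414 control (11.4%) and 426 rescued cells (12.6%), 0.84 and 0.89 of an even spread. Of genes with a total in the range of H2-Oa, 2.96% in control and 5.16% in rescued cells had a lower ratio, whereas 27.3% and 37.8% of those in the range of H2-DMa did. For H2-Aa, H2-Ab1 and H2-Eb1 these shares were 4.55%, 3.02% and 2.90% in control and 2.70%, 2.34% and 1.64% in rescued cells. The 1% of cells with the most H2-DMa UMIs, 37 control and 34 rescued cells, held 10.4% and 8.49% of them, compared with 19.1% and 12.9% for Cd74. For the 5 H2 genes summed, the top 1% of cells held 10.8% (9.43 to 12.2%) and 10.2% (9.11 to 11.4%), and for the 3 classical chains summed 73.3% (64.3 to 81.1%) and 50.7% (45.4 to 56.0%), which with 68 and 178 cells holding any such UMI follows largely from their rarity.

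**Figure D2:**
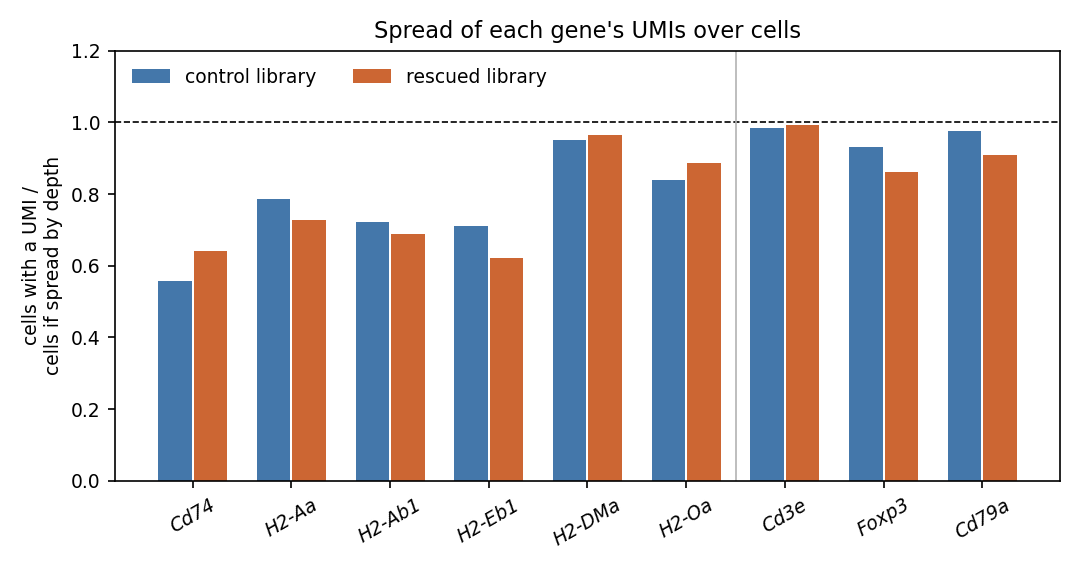
Number of cells with at least 1 UMI of each gene, divided by the number for an even spread of its UMIs by cell depth (dashed line at 1), in the control and rescued libraries. Cd74 and the 3 classical chains fall furthest below 1, at 0.56 to 0.79, while H2-DMa stands beside the T cell gene Cd3e.

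Cells with a classical chain were next examined for other class II transcripts and for B cell and myeloid markers. UMIs of 0, 1, 2 and 3 of the classical genes were found in 3566, 56, 8 and 4 control cells and in 3212, 137, 29 and 12 rescued cells. Mean Cd74 UMIs per cell were higher with each further chain, going from 0.61 through 1.82 and 5.5 to 12.3 in control and from 1.38 through 3.64 and 6.93 to 22.6 in rescued cells. Cells with 3 chains were also deeper than cells with 0, with medians of 6743.5 against 3731.5 UMIs in control and 8550.5 against 3800.5 in rescued cells. On the CPM scale Cd74 went from 145 to 1863 and from 306 to 2510 CPM.

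The classical chains tended to occur together. H2-Aa and H2-Ab1 shared 6 control and 18 rescued cells, where their numbers of positive cells and the cell depths alone would give 0.14 and 1.255. H2-Ab1 and H2-Eb1 shared 9 and 24 cells against 0.34 and 2.80. Cd74 shared 26 of the 43 H2-Eb1-positive control cells and 91 of the 115 rescued ones, against 12.4 and 59.0 by depth alone. The DO chains did not show this, as H2-Oa and H2-Ob shared 54 and 62 cells against 58.3 and 59.7. Cd74 and H2-DMa shared 304 and 645 cells against 278 and 642.

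Cells with UMIs of 2 or 3 classical chains numbered 53 in both libraries together. Cd3e was present in 51 of them, Trac in 51, Foxp3 in 40, Cd79a in 0 and Lyz2 in 0, each 0 allowing for 3 counts only a share of up to 5.66% of cells with a UMI. Over the 6778 cells without a classical chain UMI, Cd79a was found in 51 (0.75%) and Lyz2 in 18 (0.27%), shares that would give less than 1 positive cell among 53, so a 0 carries no information here. The B cell exclusion list (13 measured genes, the B cell list without Ighm, Ighd and Cd79b) had a UMI in 19 of the 53 cells, 35.8%, against 9.84% of cells without a classical chain, and the expected shares at 1000 UMIs per cell were 11.3% and 3.17%. Igkc led that list, with 214 CPM in the 53 cells and 22.5 CPM in cells without a classical chain. The part of Igkc-bearing RNA or of attached cells in these 53 cells was not tested.

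The 10 cells with the most classical chain UMIs were 7 rescued and 3 control cells. They had 7 to 19 classical UMIs, 10 to 66 Cd74 UMIs, 3 to 14 Cd3e UMIs and 3 to 12 Trac UMIs at depths of 4311 to 13534 UMIs. Foxp3 was present in 7 of them. Igkc was found in 5 of these 10 cells, with at most 1 UMI in any. Among cells without a classical chain, which had a lower median depth of 3758 UMIs, 2.91% had Igkc. Cd79a and Lyz2 had 0, which among so few cells carries no information. The richest was a rescued cell with 26 Cd74, 3 H2-Aa, 6 H2-Ab1, 10 H2-Eb1, 5 H2-DMa and 1 H2-Oa UMIs among 11036. It also had 5 Cd3e, 11 Trac and 1 Igkc UMIs and 0 Foxp3 UMIs. Scrublet, which scores doublets, called 1 control and 0 rescued cells, so its calls separated almost no cells. Whether its scores find doublets in these sorted cells was not tested.

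Cells were then grouped by their Cd74 UMIs. In control cells the summed level of the classical chains was 2.93 CPM at 0 Cd74 UMIs, 11 CPM at 2 to 4, 18.9 CPM at 5 to 9 and 126 CPM (90.02 to 172) at 10 or more. In rescued cells it was 6.94, 20.6, 46.6 and 141 CPM (118 to 168). The 31 control and 99 rescued cells with at least 10 Cd74 UMIs thus had overlapping intervals, and they held 34.5% and 35.7% of the classical UMIs. H2-DMa did not follow Cd74, with 82.7 CPM at 0 and 104 CPM (71.6 to 146) at 10 or more Cd74 UMIs in control and 124 and 136 CPM (113 to 162) in rescued cells. H2-Oa went from 28.9 to 72.5 CPM (45.9 to 109) in control and from 26.3 to 56.3 CPM (41.9 to 74.0) in rescued cells. Igkc went from 9.16 to 63.0 CPM and from 14.2 to 58.5 CPM, and Ighm from 738 to 964 CPM and from 1787 to 1673 CPM. Cd79a was at 0 in the highest group of both libraries. With only 35 control and 21 rescued UMIs in all, that 0 carries little information. Cells with more Cd74 UMIs were also deeper, with medians of 7408 and 7822 UMIs in that group.

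**Figure D3:**
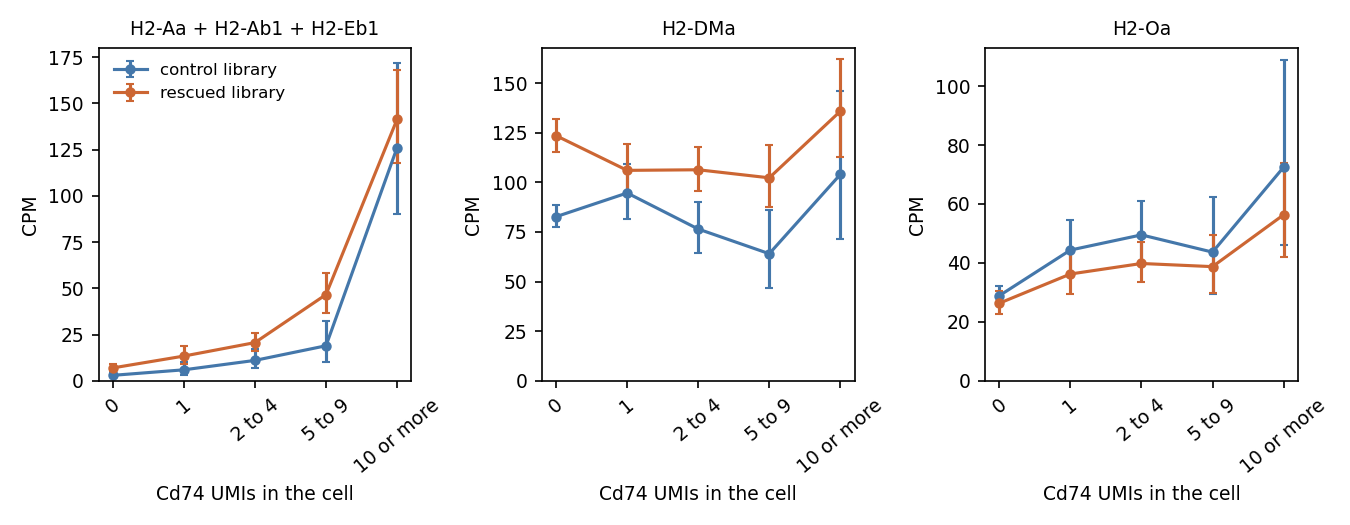
Level of the 3 classical chains summed (left), H2-DMa (middle) and H2-Oa (right), in CPM, for cells grouped by their number of Cd74 UMIs, in the control and rescued libraries, with 95% Poisson intervals. The classical chains reach 126 and 141 CPM where Cd74 has 10 or more UMIs, whereas H2-DMa stays near its level in cells without Cd74.

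Ratios were taken again without cells that had transcripts of other cell types. Without the 338 control and 379 rescued cells that had a UMI of the B cell exclusion list, the Cd74 log2 ratio was 1.16 and that of the classical sum 1.60. Without the 20 and 36 cells with a UMI of the myeloid and dendritic exclusion list, they were 1.17 and 1.61, and without either, 1.16 and 1.57. These lists had been limited to part of the markers. Leaving out the 850 control and 1103 rescued cells with a UMI of any B cell marker but Ighm gave 1.13 for Cd74 and 1.59 for the classical sum. Leaving out the 371 and 491 cells with a UMI of any myeloid or dendritic marker but Cst3 gave 1.23 and 1.75. Cells with Ighm or Cst3 UMIs were kept throughout, and RNA present in cells without any such marker was not tested. Without the 1% of cells richest in H2 UMIs they were 1.14 and 1.80. The ratio of Cd74 to B cell genes depended on the gene. For each Cd79a UMI there were 67.9 Cd74 UMIs in the control library (48.7 to 97.7) and 257 in the rescued library (168 to 415), and for each Cd79b UMI 4.26 (3.89 to 4.68) and 7.22 (6.69 to 7.81). For each Igkc UMI there were 9.98 (8.73 to 11.4) and 9.10 (8.35 to 9.92), and for each Ighd UMI 11.7 (10.1 to 13.6) and 11.03 (10.1 to 12.1), with overlapping intervals. Over library totals Cd74 thus kept about the same ratio to Igkc and Ighd, and not to Cd79a or Cd79b. Ighm, the most abundant of the B cell markers, had a log2 ratio of 1.16 beside 1.17 for Cd74, so that ratio was kept as well. Cells with Ighm were not left out, so its part was not tested. For Igkc the clusters of cells described below were mixed, and Ighd was not examined within them. Cluster 0 had 270 Cd74 and 25 Igkc UMIs in control cells, and 1328 and 95 in rescued cells. Cluster 2 had 230 and 87 in control cells, and 247 and 119 in rescued cells. In these clusters the ratio changed little, whereas clusters 3 and 5 moved in opposite directions. Cluster 3 had 217 Cd74 and 7 Igkc UMIs in control cells, and 702 and 80 in rescued cells. Cluster 5 had 205 and 28 in control cells, and 262 and 7 in rescued cells. Igkc was also uneven, as 10 control cells held 50% of its control UMIs.

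**Figure D4:**
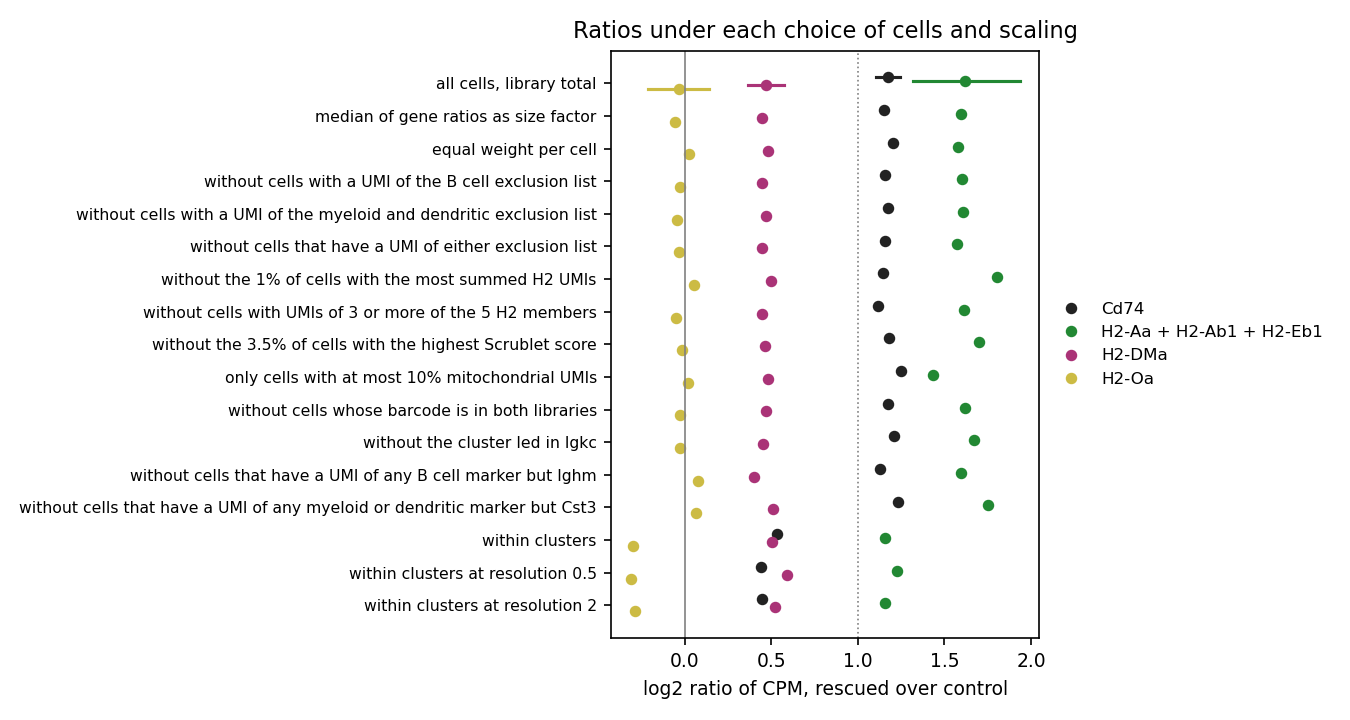
Log2 ratio of rescued to control CPM for Cd74, the 3 classical chains summed, H2-DMa and H2-Oa under each choice of cells and scaling, with a dotted line at 2-fold. Bars on the first row are 95% counting intervals, and only the ratios taken within clusters bring Cd74 below 2-fold, to between 0.44 and 0.53.

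To see where in the Treg pool the genes lay, cells were clustered without the 6 genes, which gave 11 clusters, here called by number and leading genes. In control cells it ran from 36.6 CPM (30.9 to 43.0) in cluster 8, led by Ly6c1 and Igfbp4, to 419 CPM (387 to 453) in cluster 4, led by Il1r2 and Nr4a1. In rescued cells the same clusters had 27.2 CPM (9.97 to 59.2) and 656 CPM (624 to 688). At 1000 UMIs per cell, 2.77% of control cells of cluster 8 and 28.4% of those of cluster 4 were expected to show Cd74, with median depths of 3730 and 4953 UMIs. Cluster 8 made up 28.7% of control but 1.504% of rescued cells, and cluster 0, led by Asb2 and Neb, with 331 and 431 CPM of Cd74, made up 5.45% and 21.5%. Taken within clusters and weighted by their pooled size, the Cd74 log2 ratio was 0.53, against 1.17 over all cells, and it was 0.44 and 0.45 with 6 and 26 clusters. Cd74 was higher in rescued cells in 10 of 11 clusters, with the exception of cluster 8, which had 6 rescued UMIs.

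The classical chains were highest in control cells in cluster 4, at 24.3 CPM (17.04 to 33.7), where rescued cells had 37.7 CPM (30.5 to 46.1). In cluster 3, led by S100a4 and S100a6, they had 7.93 CPM (3.96 to 14.2) in control and 31.2 CPM (24.4 to 39.3) in rescued cells. The highest value, 86.4 CPM in rescued cells of cluster 10, led by the interferon-induced genes Ifit3 and Ifit1, rested on 19 UMIs in 3 cells, and without a single cell with 15 of them it was 18.8 CPM. Within clusters the log2 ratio of the classical sum was 1.15, with 1.34 for H2-Aa, 1.34 for H2-Ab1 and 0.99 for H2-Eb1. Igkc was highest in cluster 2, led by Pdcd1 and Tbc1d4, at 73.9 and 170 CPM, where the classical chains had 8.50 and 11.4 CPM. Without that cluster the log2 ratios were 1.21 for Cd74 and 1.67 for the classical sum.

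H2-DMa and H2-Oa followed other clusters. H2-DMa was higher in rescued cells in 11 of 11 clusters, with a log2 ratio of 0.50 within clusters, and ran from 61.3 to 151 CPM over control and from 90.9 to 176 CPM over rescued clusters. H2-Oa was highest in cluster 7, a group of 72 control and 20 rescued cells led by H2-Oa itself and Capn3, at 146 CPM (109 to 190) in control and 91.4 CPM (41.8 to 173) in rescued cells. That cluster had 0 classical chain UMIs. H2-Oa was higher in rescued cells in 3 of 11 clusters, and its log2 ratio within clusters was -0.30, against -0.04 over all cells.

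**Figure D5:**
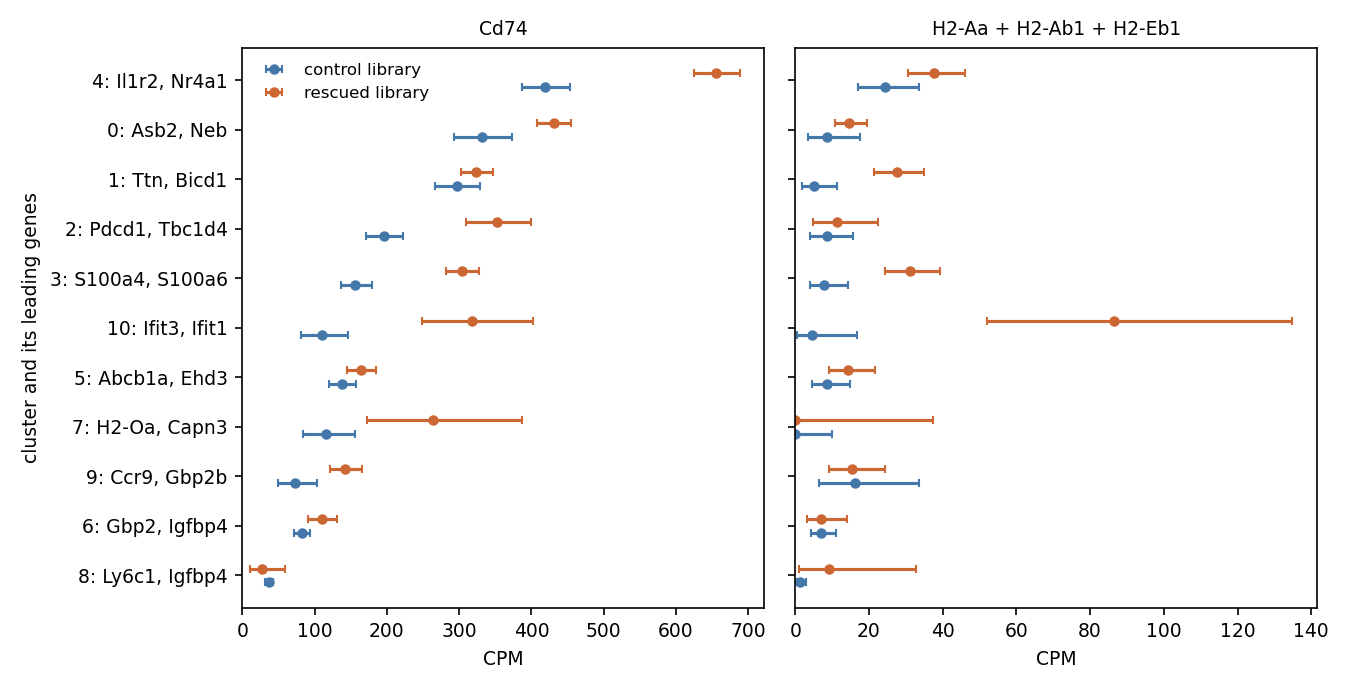
Level of Cd74 (left) and of the 3 classical chains summed (right), in CPM with 95% Poisson intervals, in each of 11 clusters of the control and rescued libraries, ordered by Cd74 and named by their leading genes. Cd74 is lowest in the cluster led by Ly6c1 and highest in the cluster led by Il1r2 in both libraries.

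Over the 20 sums of cluster and library with at least 50 cells, the genes most like Cd74 among 6973 genes were Tnfrsf18, the receptor GITR (Pearson r = 0.93), Stx11 (0.93), Adap1 (0.92), Tnfrsf4, the receptor OX40 (0.91), and Rilpl2 (0.91). On the same measure H2-Eb1 had 0.69, H2-Ab1 0.51, H2-Aa 0.24, H2-Oa 0.18, H2-DMa -0.18, Ciita -0.36, Igkc 0.70 and Ighm 0.64. These sums share libraries and depth, so the values are a description. Ciita, with 10 control and 37 rescued UMIs, H2-Aa, with 23 and 71, and H2-Ab1, with 32 and 96, are spread thinly over the sums. Their levels lay mostly below the 10 CPM added before taking logs. The size and sign of their values therefore carry little information.

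Control cells were also divided by the tdTomato reporter, which Cre switches on for good in CD4-expressing cells present at treatment. At least 1 tdTomato UMI was present in 62.9% of the control cells and 55.9% of the rescued cells, although nearly all rescued cells descend from Cre-exposed cells. The study's own call, made from imputed values, placed most control cells in the tdTomato- group. Presence of a UMI is therefore a weak guide to origin here, and tdTomato+ and tdTomato- below mean only with and without a tdTomato UMI. The 2287 tdTomato+ control cells had 175 CPM of Cd74 and the 1347 tdTomato- control cells 108 CPM, a log2 ratio of 0.69 (0.56 to 0.84). With tdTomato+ set at 4 or more UMIs, which 468 control cells had, it was 0.43. The classical chains had 8.89 and 4.62 CPM, from 93 and 23 UMIs, H2-Oa 38.8 and 26.7 CPM, and H2-DMa 82.8 and 83.9 CPM. The log2 ratio of H2-Oa was 0.54 (0.25 to 0.83) and that of H2-DMa -0.02 (-0.19 to 0.15). Of the 6 genes, 1 (H2-Ab1, with 28 and 4 UMIs) was at least 2-fold higher, and 0 of the 3 with at least 100 UMIs, where 0.447% of all genes were. Within clusters the Cd74 log2 ratio was 0.20. The tdTomato- cells were also shallower, with a median of 3508 against 3930 UMIs.

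Rescued cells against tdTomato+ control cells, a comparison that shares the rescued library with the first, gave a Cd74 log2 ratio of 0.99 (0.91 to 1.06) and a ratio of 1.38 (1.05 to 1.72) for the classical sum. H2-DMa had 0.48 (0.36 to 0.60) and H2-Oa -0.19 (-0.38 to 0.00). Of the 6 genes, 3 were at least 2-fold higher, and 2 of the 5 with at least 100 UMIs, where 1.15% of all genes were. The 2 were H2-Ab1 and H2-Eb1, with 28 and 47 UMIs in tdTomato+ control and 96 and 192 in rescued cells. Both thus needed their rescued UMIs to reach the minimum. The genes had also been picked with the rescued library known, so the count is a description only. Within the rescued library, cells with and without tdTomato UMIs had 350 and 342 CPM of Cd74 and 25.3 and 19.7 CPM of the classical chains. Cells with and without a Foxp3 UMI had 187 and 140 CPM of Cd74 in control and 361 and 301 CPM in rescued cells, so that rescued cells without a Foxp3 UMI stood above control cells with one.

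Other genes were listed for the class II pathway, together with ligands and co-receptors of Cd74 and interferon-gamma signalling genes. Of 35 measured genes, 27 had at least 100 UMIs, of which 0 were at least 2-fold higher and 0 at least 2-fold lower in rescued cells. Their log2 ratios had a median of 0.06 and ran from -0.87 (Cxcr4) to 0.74 (Ifngr1). Of all 9779 genes with that minimum only 1.72% were at least 2-fold higher, so a count of 0 among 27 does not set the list apart. Below that minimum Ciita, H2-DMb1 and Ctsh were over 2-fold higher. Ciita, the transactivator, had 10 UMIs in control and 37 in rescued cells (log2 ratio 1.88, 0.84 to 3.05), in 10 and 36 cells. Of the factors that bind the X box, Rfx5 had a log2 ratio of 0.31 (0.04 to 0.57), Rfxank 0.25 (0.05 to 0.45) and Rfxap 0.06 (-0.07 to 0.18). The Y box factor genes Nfya, Nfyb and Nfyc had -0.20, -0.08 and -0.17, and Creb1 had -0.04.

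Ctss, a cathepsin that trims the invariant chain, had 409 CPM in control and 402 CPM in rescued cells. Among the other lysosomal genes, the log2 ratio was 0.43 (0.13 to 0.74) for the endopeptidase Lgmn, 0.30 (0.23 to 0.38) for Ctsb, 0.27 (0.10 to 0.44) for the thiol reductase Ifi30, 0.17 (0.05 to 0.28) for Sppl2a, 0.01 for Ctsd and -0.28 (-0.62 to 0.06) for Ctsl, and Ctsh, with 11 and 23 UMIs, had 1.06 (-0.04 to 2.24). H2-Ob had -0.18 (-0.36 to 0.01) and H2-Eb2 had 1 UMI in each library. Cd83, which protects class II from turnover, had 0.30 (0.21 to 0.40), whereas March1 and March8, ubiquitin ligases of that turnover, had 3 or fewer UMIs in each library.

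Cd74 is also a receptor for the cytokine Mif, with Cd44 and Cxcr4 as partners. Mif had 460 CPM in both libraries and Ddt, its relative, a log2 ratio of 0.08 (-0.01 to 0.18). Cd44 was higher in rescued cells, at 81.1 and 121 CPM (0.58, 0.48 to 0.69), and Cxcr4 lower, at 97.9 and 53.7 CPM (-0.87, -0.99 to -0.74). Cxcr2 had 25 and 21 UMIs. Of the interferon-gamma signalling genes that lie upstream of Ciita, Ifngr1 had 366 and 610 CPM (0.74, 0.69 to 0.79) and Ifngr2 39.5 and 27.9 CPM (-0.50, -0.68 to -0.32). Socs1 had a log2 ratio of 0.29 (0.21 to 0.36), Irf1 0.10 (0.03 to 0.17), Jak2 0.05 (-0.10 to 0.19) and Jak1 -0.19 (-0.24 to -0.14). H2-Ea was not analysed here.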

How the data were processed

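Double-sorted Treg cells of 5 control and 4 rescued mice were pooled per group and captured by 10x Chromium 3′ chemistry (V3). Reads were aligned and counted by the authors using Cell Ranger 3.0 and GRCm38 extended by the tdTomato allele, and Seurat 3.1.5 is named in the submitters' processing notes. The deposited counts are whole UMI counts for 7024 cells and 16098 genes, without normalization. A log-transformed table normalized by the authors was not used. Their methods give a 5% mitochondrial limit, but the median share in the deposited counts was 9.43% in control and 9.06% in rescued cells, so no limit was applied.

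All cells were used. Counts were summed per library or cell class and given as CPM, with exact Poisson, exact binomial (Clopper-Pearson) and conditional exact intervals at 95%, and log2 ratios need no pseudocount. With 1 library per group no test was run. Expected shares at 1000 UMIs were computed from the hypergeometric distribution, which left out 0 cells. A gene counted in the background with at least 100 UMIs. Cells were clustered in scanpy 1.11.5 (2000 variable genes, 30 components, 15 neighbours, Leiden resolution 1), leaving out 153 genes, namely the 6 genes, T cell receptor and immunoglobulin genes and mitochondrial genes. A cell with 1 or more tdTomato UMIs was called tdTomato+. Scrublet marked 1 cell, and its highest-scoring 3.5% were left out as an alternative. Ratio, interval and spread code was checked on simulated counts.

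The genes, lists and markers were chosen with earlier results of these data known. Genes named were the 6 genes, Cd79a, Lyz2, a fixed class II pathway list and the 5 genes most like Cd74 over cluster sums on log2(CPM + 10) with at least 500 UMIs. Positions came from GENCODE and promoters from RefSeq, both GRCm38. Python 3.11.15 and scipy 1.17.1 were used.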

Additional observations from a re-analysis of the deposited data

How the results depend on the processing

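No paired analysis was possible because neither group has more than 1 library. No alternative changed the direction of a ratio whose counting interval lay clear of 0. Of the values that answer a comparison, 115 stayed and 21 moved, judged by the counting interval for ratios and shares and by a 1.5-fold margin for counts of genes. For rescued against control cells the ratios within clusters were 0.53 for Cd74, 0.37 for the 5 H2 genes and 1.15 for the 3 classical chains, and with 6 clusters 0.44 for Cd74 and 1.23 for the classical chains, with 26 clusters 0.45, 0.37 and 1.16. The number of the 6 genes at least 2-fold higher was then 2, with 6 clusters 3 and with 26 clusters 2. For tdTomato+ against tdTomato- control cells the Cd74 ratio was 0.20 within clusters, and for rescued against tdTomato+ control cells it was 0.50. With at most 10% mitochondrial UMIs the Cd74 ratio was 1.25 for rescued against control and 0.91 for tdTomato+ against tdTomato- control cells. Calling tdTomato+ at 4 or more UMIs gave 0.43 for Cd74 in control cells, and 2 or 4 UMIs gave 0.82 and 0.83 for rescued against tdTomato+ control cells. There the H2-Ab1 ratio, 1.21 at 1 or more UMIs, was 0.22 at 4 or more. Without cells of the B cell exclusion list the rescued top 1% share was 8.84%, and without either list 8.68%. Genes at least 2-fold higher were 3.38% with a minimum of 20 UMIs and 3.90% with 3 UMIs in each library. The cause of these shifts was not tested. The sum of the 3 classical chains, leaving out shared barcodes, the cluster led in Igkc or cells with any listed marker but Ighm or Cst3, and the other cluster resolutions were chosen after seeing the data. H2-Aa, H2-Ab1, Ciita and the H2-DMb genes rest on few UMIs, so small differences between clusters were not detectable for them.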
